A study of Mus musculus with 6 samples.

Results

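The genes described here are 10 p53 targets and cell cycle genes, Mdm2, Ccng1, Cdkn1a, Gadd45a, Trp53inp1, Perp, Pcna, Ccnd1, Ccnd2 and Ccne2, followed by their gene symbols in RNA-seq tables of mouse liver. Each of the 10 symbols had 1 row among the 24927 rows of each table. The series holds 6 whole-liver libraries from C57BL/6 mice, an inbred laboratory strain, and asks how expression differs when Cdkl3, which encodes a kinase related to the cyclin-dependent kinases, is deleted. By their labels 3 libraries came from Cdkl3-/- mice (knockout) and 3 from wild type mice, and all mice were male, fed chow and 10 months old. The means of deleting the gene is not given in the sources used here. Expression is given as FPKM, a fragment number divided by transcript length in kilobases and by library size, which allows levels to be compared between genes.

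The labels and the values did not match in every respect. Cdkl3 itself was listed at 0.0761, 0.146 and 0.195 FPKM in the libraries labelled knockout, against 0.166, 0.0883 and 0.119 FPKM in those labelled wild type. These values overlapped (two-sided exact permutation test, p = 0.8, where 3 against 3 libraries cannot go below 0.1). They rest on 10, 31 and 28 reads in the libraries labelled knockout and on 32, 23 and 13 in those labelled wild type. With so few reads and the means of deletion not given, they cannot show whether the gene was deleted. Xist, which is transcribed from the inactive X chromosome of females, was at most 0.0273 FPKM in the libraries labelled knockout and at least 192 FPKM in those labelled wild type. The Y-linked gene Ddx3y was at least 38.2 FPKM in the libraries labelled knockout and at most 0.207 FPKM in those labelled wild type. Eif2s3y, also Y-linked, was at least 44.9 FPKM in the libraries labelled knockout and at most 0.881 FPKM in those labelled wild type. Sex as read from these genes and labelled genotype therefore cannot be told apart in any comparison below. The kidney transcript Kap reached 5264 FPKM in knockout replicate 1 and 5.72 FPKM or less elsewhere. The header of the table of knockout replicate 3 carries a sample code other than its title. Depth ran from about 20460000 to 48610000 reads counted on genes. The hepatocyte marker Alb was listed at 743, 1613 and 1057 FPKM in the libraries labelled knockout and at 425, 286 and 261 FPKM in those labelled wild type.

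p53 is a transcription factor that is held at a low level by the ubiquitin ligase Mdm2 and that accumulates when DNA is damaged or growth is inappropriate. It then activates genes that halt the cell cycle, repair DNA or kill the cell, and Mdm2 is one of them, which closes a feedback loop. In the liver of an adult most hepatocytes rest outside the cell cycle. D-type cyclins with their kinases start the passage into S phase, E-type cyclins complete it, and Pcna clamps DNA polymerase to its template.

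RefSeq promoter windows (GRCm38.p6, 250 bases before to 50 bases after an annotated start) were available for 5 of the 10 genes, Mdm2, Ccng1, Cdkn1a, Gadd45a and Pcna. They are shown for Mdm2 and Pcna, the members that were higher in the libraries labelled knockout, and for Cdkn1a, the most widely used readout of p53 activity. In the Mdm2 and Cdkn1a windows capitals mark matches to the p53 half-site consensus on either strand. In the Pcna window, which held no such match, they mark the words GGGCGG and CCAAT on either strand. The Mdm2 window lies at chr10:117710709-117711008 on the minus strand, the Pcna window at chr2:132253131-132253430 on the minus strand, and the window of the upstream Cdkn1a start at chr17:29090729-29091028 on the plus strand.
Mdm2: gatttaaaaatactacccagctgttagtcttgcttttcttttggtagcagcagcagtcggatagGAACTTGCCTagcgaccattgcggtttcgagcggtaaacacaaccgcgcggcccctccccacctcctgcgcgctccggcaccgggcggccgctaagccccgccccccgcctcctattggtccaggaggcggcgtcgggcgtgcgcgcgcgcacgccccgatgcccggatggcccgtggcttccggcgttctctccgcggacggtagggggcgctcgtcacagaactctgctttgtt
Pcna: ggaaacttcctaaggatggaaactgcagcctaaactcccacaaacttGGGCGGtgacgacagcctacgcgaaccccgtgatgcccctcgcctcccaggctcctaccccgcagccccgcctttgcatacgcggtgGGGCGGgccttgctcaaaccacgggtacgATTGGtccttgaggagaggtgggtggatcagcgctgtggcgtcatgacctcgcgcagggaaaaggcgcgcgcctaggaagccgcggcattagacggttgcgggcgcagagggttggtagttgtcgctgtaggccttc
Cdkn1a: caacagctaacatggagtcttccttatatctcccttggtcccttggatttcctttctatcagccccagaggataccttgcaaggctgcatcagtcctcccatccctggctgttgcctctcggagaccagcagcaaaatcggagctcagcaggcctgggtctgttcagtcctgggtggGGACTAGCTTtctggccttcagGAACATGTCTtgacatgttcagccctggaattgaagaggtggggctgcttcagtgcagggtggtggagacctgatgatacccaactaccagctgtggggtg

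The half-site consensus matched once in the Mdm2 window (GAACTTGCCT), at -186 from the start, and 2 times in the upstream Cdkn1a window (GGACTAGCTT and GAACATGTCT), at -73 and -51. It matched once in the windows of Ccng1 (GGGCAAGCCT, -185) and Gadd45a (GGGCTAGCCC, -40), and not in the downstream Cdkn1a window. Among 32851 promoter windows of this length 8.36% held a match and 0.359% held 2 or more. GGGCGG was in 35.7% and CCAAT in 37.4% of all windows. These are matches of letters, and binding of p53 was not measured.

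Of the 8 members that could be tested, Mdm2 and Pcna were higher and Perp, Ccnd1 and Ccne2 were lower in the libraries labelled knockout, and Ccng1, Gadd45a and Trp53inp1 did not pass the threshold. The test was limma on log2(FPKM + 1) across the 5673 genes that reached 1 FPKM in 3 or more libraries, and a call required a Benjamini-Hochberg adjusted p under 0.05. All 8 tested members were at 1 FPKM or more in every library, so none passed that filter through 1 group alone. Cdkn1a and Ccnd2 were under it. The called members made up 25.0% higher and 37.5% lower, beside 33.7% higher and 20.4% lower of all genes tested. Of all genes tested 626 were under 1 FPKM in every library labelled wild type and 131 in every library labelled knockout. Unlike the members, these genes were tested only through 1 group, and the shares without them were not computed. For 5 of the 8 members, or 62.5%, no value of one group lay within the range of the other, close to the 63.9% of all genes tested. The median difference of the 8 members was -0.31 on the log2 scale and that of all tested genes 0.12. Centring each library on its median lowered every difference by 0.28, and after it 2 members were still higher and 3 lower. Of all 5673 genes 1443 were then higher and 1891 lower.

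**Figure D1:**
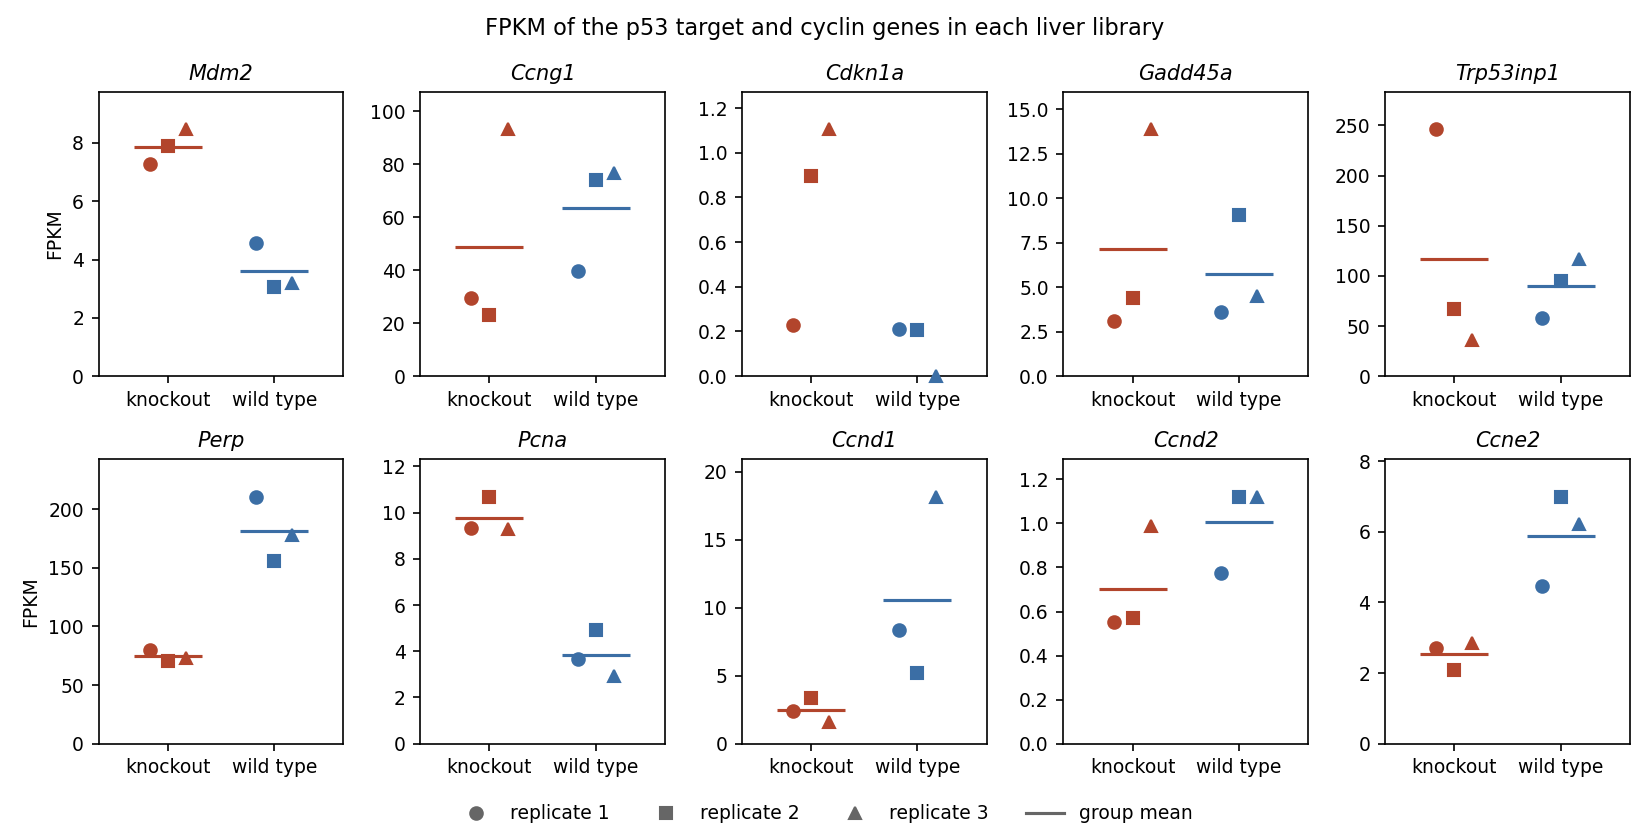
FPKM (y axis, from 0, a separate scale for each gene) of the 10 genes in the 3 libraries labelled knockout (left) and the 3 labelled wild type (right), with the replicate number given by the symbol and the group mean by the line, which is left out for Cdkn1a because 1 library is listed at 0. Mdm2 and Pcna lie above and Perp, Ccnd1 and Ccne2 below the libraries labelled wild type without overlap, while knockout replicate 3 is highest for Ccng1 and Gadd45a and knockout replicate 1 for Trp53inp1.

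Mdm2, the ubiquitin ligase that limits p53, was higher in every library labelled knockout. It measured 7.27, 7.88 and 8.47 FPKM in the libraries labelled knockout, against 4.58, 3.05 and 3.20 FPKM in those labelled wild type. Both groups were tight, with means of 7.88 ± 0.600 FPKM under the knockout label and 3.61 ± 0.841 FPKM under the wild type label (SD, n = 3 each), a ratio of 2.18. The values rest on 907, 1584 and 1151 reads in the libraries labelled knockout and on 838, 753 and 333 reads in those labelled wild type. The log2 difference was 0.96 (SE 0.18, limma adjusted p = 0.0030). It lay between 0.68 and 1.13 in all 17 alternative settings in which Mdm2 could be tested.

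Ccng1 encodes cyclin G1, a p53 target that brings a phosphatase to Mdm2, and its level varied widely within the libraries labelled knockout. It measured 29.3, 23.2 and 93.2 FPKM there, against 39.7, 74.2 and 76.7 FPKM in those labelled wild type. Knockout replicate 3 was the highest and the other two knockout libraries the lowest of the 6. The log2 difference was -0.59 (SE 0.53, limma adjusted p = 0.37), and its 95% interval ran from -1.84 to 0.66. Without knockout replicate 3 the difference was -1.19 and the adjusted p was 0.018, so that 1 library decided whether Ccng1 was called.

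Cdkn1a encodes p21, the inhibitor of cyclin-dependent kinases through which p53 halts the cycle, and it was listed at a low level in every library. The values were 0.229, 0.897 and 1.11 FPKM in the libraries labelled knockout, against 0.211, 0.208 and 0 FPKM in those labelled wild type. They correspond to 20, 126 and 105 reads in the libraries labelled knockout and to 27, 36 and 0 reads in those labelled wild type. In the library listed at 0, wild type replicate 3, 3 reads on this gene would be worth 0.0413 FPKM. The groups did not overlap, but knockout replicate 1 was close to wild type replicate 1, with 0.229 against 0.211 FPKM. In a fit of 20529 genes without the filter, where 15.4% were higher and 5.09% lower, the log2 difference of Cdkn1a was 0.58 (SE 0.21) and the limma adjusted p was 0.11. The smallest p an exact permutation of 3 against 3 libraries allows is 0.1, which Cdkn1a reached. Gapdh, an enzyme gene expressed in nearly every cell, was listed at 0.237, 0.232 and 0.217 FPKM in the libraries labelled knockout and at 0, 0 and 0.0237 FPKM in those labelled wild type. A low FPKM in these tables does not by itself show a low level of the RNA.

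Gadd45a encodes a small stress protein that binds Pcna and the mitotic kinase, and its groups overlapped. It measured 3.10, 4.40 and 13.9 FPKM in the libraries labelled knockout, against 3.62, 9.06 and 4.52 FPKM in those labelled wild type. Its highest value was again in knockout replicate 3. The log2 difference was 0.12 (SE 0.51, limma adjusted p = 0.86), and the sign was not stable, with -0.43 without knockout replicate 3 and -0.16 after median centring.

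Trp53inp1, a nuclear partner of p53 that also takes part in autophagy, had the widest spread of the 10 genes. It measured 246, 67.3 and 35.8 FPKM in the libraries labelled knockout, against 57.9, 94.9 and 117 FPKM in those labelled wild type. Knockout libraries thus held both the highest and the lowest value of the 6. The log2 difference was -0.03 (SE 0.70, limma adjusted p = 0.97), with a 95% interval from -1.73 to 1.67 that leaves room for changes of several fold in either direction. The high value was in the library in which Kap was highest. The 11 kidney tubule markers with a usable row summed to 5300.0 FPKM in knockout replicate 1, of which Kap alone gave 5264 FPKM. The sums were 4.59 and 6.09 FPKM in knockout replicates 2 and 3, of which Kap gave 4.18 and 5.72 FPKM. Under the wild type label they ran from 0.87 to 2.89 FPKM, with Kap at 0.0785, 0 and 0 FPKM. Without knockout replicate 1 the log2 difference of Kap was 2.52 (limma adjusted p = 0.00011). Kap was tested only through the libraries labelled knockout, the removed library included. That of Trp53inp1 was then -0.80 with a limma adjusted p of 0.11. The part that kidney RNA has in the high value of Trp53inp1 was not tested.

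Perp, a membrane protein that p53 induces during cell death and that also builds cell junctions, was among the members with the highest FPKM. It was lower in the libraries labelled knockout. It measured 79.9, 70.9 and 72.9 FPKM there, against 211, 155 and 178 FPKM in those labelled wild type. The 6 values formed a tight low group and a high group, with means of 74.6 ± 4.74 FPKM under the knockout label and 181 ± 27.8 FPKM under the wild type label (SD, n = 3 each) and a ratio of 0.411. Its log2 difference was -1.26 (SE 0.18, limma adjusted p = 0.00085). It stayed between -1.90 and -1.15, and called, in all 18 alternative settings.

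Perp and Mdm2, both p53 targets, therefore differed in opposite directions. Knockout replicate 3 was the highest of its group for Ccng1, Gadd45a, Cdkn1a and Mdm2, and also for Ccnd2 and Ccne2. It was the lowest of its group for Trp53inp1, Pcna and Ccnd1, and in between for Perp. Lymphocyte markers were highest in knockout replicate 3. The 8 with a usable row summed to 8.39 FPKM there, against 1.09 to 3.25 FPKM in the other 5 libraries. The part of lymphocyte RNA in the values of knockout replicate 3 was not tested.

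**Figure D2:**
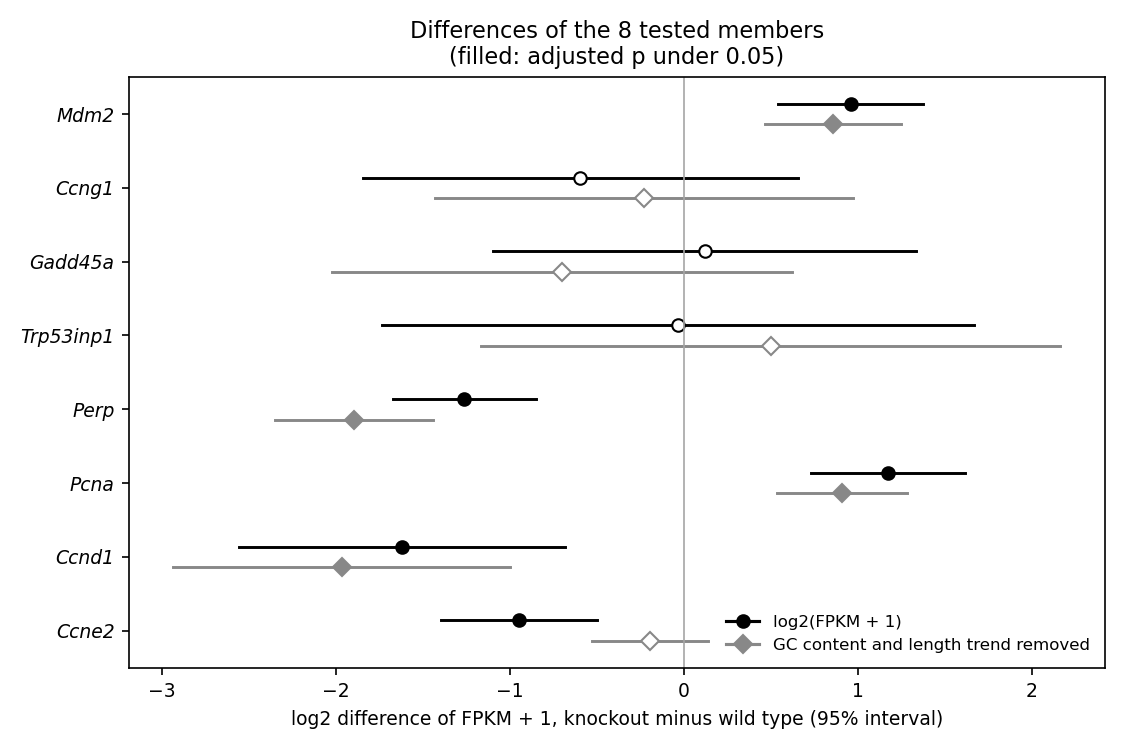
Log2 differences of FPKM + 1, knockout minus wild type (x axis), for the 8 tested members, with 95% intervals from limma, as fitted on the deposited values (circles) and after removal of the dependence on GC content and exon length within each library (diamonds), filled where the adjusted p was under 0.05. Ccne2 moves from -0.95 to -0.19 with that removal, while Mdm2, Pcna, Perp and Ccnd1 keep their calls.

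Pcna, the sliding clamp of DNA polymerase and a gene induced both by p53 and at entry into S phase, was higher in the libraries labelled knockout. It measured 9.33, 10.7 and 9.31 FPKM there, against 3.67, 4.91 and 2.93 FPKM in those labelled wild type. The groups were well apart, and the ratio of the means of 9.78 ± 0.794 FPKM under the knockout label and 3.84 ± 1.00 FPKM under the wild type label (SD, n = 3 each) was 2.55. On the log2 scale Pcna differed by 1.17 (SE 0.19, limma adjusted p = 0.0016), with a range of 0.89 to 1.35 over 17 alternatives. A processed copy of the gene, Pcna-ps2, which can share reads with it, was listed at 0.55 FPKM or less in the libraries labelled knockout and 0.569 FPKM or less in those labelled wild type.

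Ccnd1 encodes cyclin D1, the D-type cyclin that rises when hepatocytes enter the cycle, and it was lower in the libraries labelled knockout. It measured 2.42, 3.37 and 1.57 FPKM in the libraries labelled knockout, against 8.38, 5.21 and 18.2 FPKM in those labelled wild type. The groups did not overlap, but the libraries labelled wild type differed among themselves by more than 3-fold. The means were 2.45 ± 0.897 FPKM under the knockout label and 10.6 ± 6.75 FPKM under the wild type label (SD, n = 3 each), a ratio of 0.232, and the log2 difference was -1.62 (SE 0.40, limma adjusted p = 0.011). Without wild type replicate 3, the highest library, it was -1.18 with an adjusted p of 0.019, beside -1.27 for Perp.

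Ccnd2, the D-type cyclin that shares the kinase partners of cyclin D1, was under the filter. It measured 0.550, 0.570 and 0.990 FPKM in the libraries labelled knockout, against 0.776, 1.12 and 1.12 FPKM in those labelled wild type. The groups overlapped, and the log2 difference in the fit without the filter was -0.24 (SE 0.15, limma adjusted p = 0.31, 95% interval -0.59 to 0.11). The FPKM of Ccnd1 exceeded that of Ccnd2 in each library. The ratios were 4.41, 5.91 and 1.59 in the libraries labelled knockout and 10.8, 4.64 and 16.2 in those labelled wild type. The third D-type cyclin, Ccnd3, was listed at 0 in all 6 libraries.

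Ccne2 encodes cyclin E2, which activates Cdk2 at the start of S phase, and it was lower in the libraries labelled knockout. It measured 2.72, 2.08 and 2.85 FPKM there, against 4.46, 6.998 and 6.21 FPKM in those labelled wild type. The groups did not overlap, with means of 2.55 ± 0.413 FPKM under the knockout label and 5.89 ± 1.30 FPKM under the wild type label (SD, n = 3 each). Cyclin E2 differed by -0.95 on the log2 scale (SE 0.20, limma adjusted p = 0.0045). Its transcript is poor in G and C, at 36.3% GC, lower than all but 2.5% of the tested genes. Removing the dependence on GC content and exon length within each library (the trend removal) left a log2 difference of -0.19 with an adjusted p of 0.29, so the call was lost. After it 34.6% of genes were higher and 17.3% lower, and 2 members were higher and 2 lower. Ccne2 also shares 17.4% of its exon bases with Ints8 on the opposite strand, which measured 5.32, 5.77 and 6.32 FPKM in the libraries labelled knockout and 3.82, 1.81 and 3.60 FPKM in those labelled wild type. Whether the counting used strand is not given in the sources used here.

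**Figure D3:**
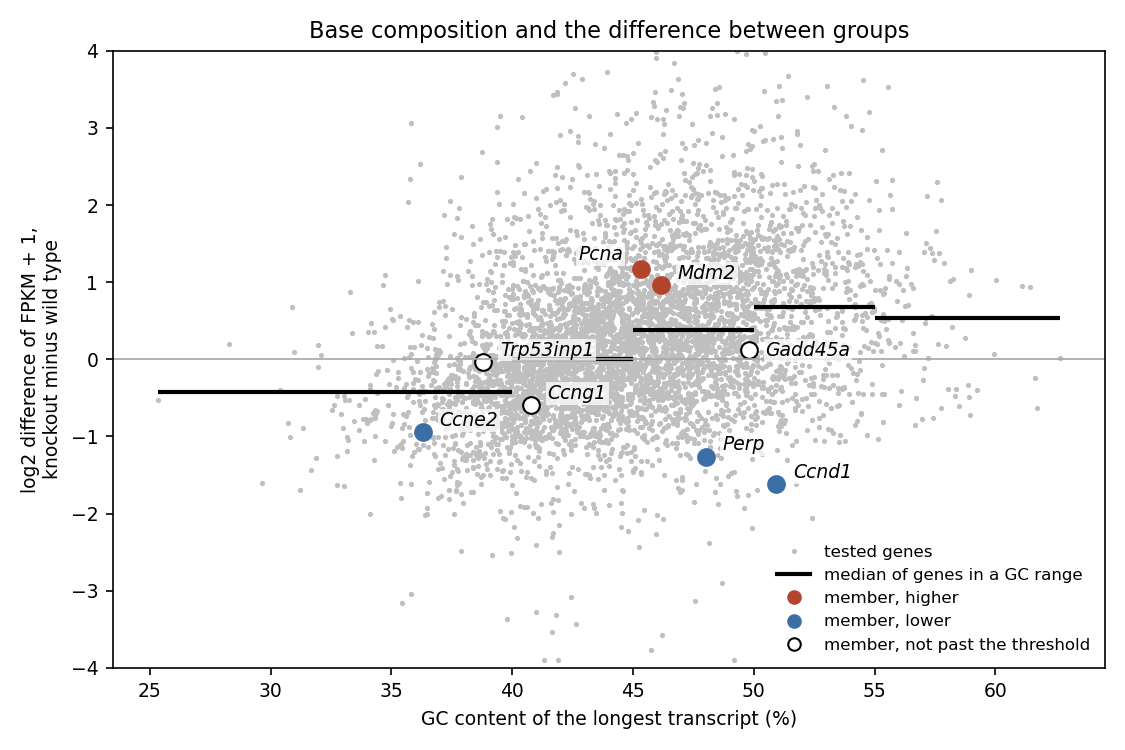
GC content of the longest transcript in percent (x axis) against the log2 difference of FPKM + 1, knockout minus wild type (y axis), for 5539 tested genes (grey; 40 lie beyond the axis limits of 4), with the median in each of 5 GC ranges (bars) and the 8 tested members (large points). The median is -0.42 under 40% GC and 0.68 between 50 and 55% GC; Ccne2 lies low in the range where most genes are low, and Perp and Ccnd1 lie far below the median of their ranges.

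The base composition of the members bears on how their differences compare with those of other genes. Among 826 tested genes under 40% GC, the range of Ccne2 and Trp53inp1, 11.7% were called higher and 39.8% lower. Among 668 genes of 50 to 55% GC, the range of Ccnd1 (50.9% GC), 55.5% were higher and 11.5% lower. Perp, at 48.0% GC, Mdm2, at 46.2%, and Pcna, at 45.3%, lay in a range of 1812 genes in which 44.8% were higher and 13.0% lower. Ccnd1 and Perp thus fell where most genes did not, and after removal of the trends their log2 differences were -1.97 and -1.90 with limma adjusted p of 0.0059 and 0.00028. Ccng1 (40.8% GC) was at -0.23 and Gadd45a (49.8% GC) at -0.70 after it, neither past the threshold.

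By FPKM, which need not rank genes by their RNA in these tables, the members fell into groups of high and low values. In the libraries labelled knockout Trp53inp1 had the highest mean, 116 ± 114 FPKM, followed by Perp and by Ccng1 at 48.6 ± 38.8 FPKM (SD, n = 3 each), and these 3 did not differ beyond their spread. Pcna followed, above Mdm2 in each of the 3 libraries, and Gadd45a (7.12 ± 5.88 FPKM) overlapped both, then came Ccne2 and Ccnd1, and Ccnd2 at 0.703 ± 0.249 FPKM. In the libraries labelled wild type Perp came first, above Trp53inp1 at 89.9 ± 29.8 FPKM and Ccng1 at 63.5 ± 20.6 FPKM. Ccnd1, Ccne2 and Gadd45a (5.73 ± 2.92 FPKM) overlapped there, with Ccnd1 above Ccne2 in replicates 1 and 3 and below it in replicate 2, Pcna and Mdm2 followed, and Ccnd2 at 1.01 ± 0.200 FPKM was again low. Ccnd1 thus stood above Pcna in every library labelled wild type and below it in every library labelled knockout.

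Trp53inp1 and Ccne2 are neighbours on chromosome 4, where Trp53inp1 spans chr4:11156431-11174379 and Ccne2 chr4:11191351-11204779 (GRCm38, plus strand), 16971 bases apart. Their profiles over the libraries differed, with Trp53inp1 overlapping between groups and Ccne2 not. Mdm2 and Perp lie on chromosome 10, and Gadd45a and Ccnd2 on chromosome 6.

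Genes that regulate p53 and other p53 targets were compared in the same fit. Of 78 listed genes besides the members 67 had a usable row and 22 could be tested. Of these 10 were higher (45.5%) and 1 lower (4.55%), beside 33.7% and 20.4% of all genes. The median log2 difference of the 22 was 0.13, beside 0.12 over all genes. After median centring the counts were 8 higher and 4 lower, after quantile normalization 8 and 8, and after the trend removal 8 and 3. Of all 5673 genes 1443 were higher and 1891 lower after median centring, and 1427 and 1761 after quantile normalization. After the trend removal 1919 and 959 of 5539 genes were called. Among p53 and its regulators 1 of 6 tested genes was called, the deubiquitinase Usp7, which acts on both p53 and Mdm2, at 10.0 ± 0.927 FPKM in the libraries labelled knockout and 2.77 ± 1.09 FPKM in those labelled wild type (SD, n = 3 each; limma adjusted p = 0.0010). Trp53, the gene of p53 itself, was under the filter, at 0.0403, 0.0813 and 0.0555 FPKM in the libraries labelled knockout and 0.0137, 0 and 0 FPKM in those labelled wild type.

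Among other p53 targets of growth arrest and feedback 5 of 7 tested genes were higher and 0 lower, or 4 and 1 after the trend removal. Over all tested genes 33.7% were higher and 20.4% lower, or 34.6% and 17.3% after the trend removal. Trp53inp2, a relative of Trp53inp1 that acts in autophagy, averaged 24.3 ± 4.65 FPKM in the libraries labelled knockout and 5.11 ± 3.97 FPKM in those labelled wild type (limma adjusted p = 0.0028). Btg1, an inhibitor of proliferation, averaged 14.9 ± 1.52 FPKM under the knockout label and 7.78 ± 1.89 FPKM under the wild type label (adjusted p = 0.0062), and the stress-induced protein Sesn3 2.82 ± 0.137 FPKM under the knockout label and 1.27 ± 0.373 FPKM under the wild type label (adjusted p = 0.0055). The kinase Plk2 averaged 1.32 ± 0.262 FPKM under the knockout label and 0.188 ± 0.107 FPKM under the wild type label (adjusted p = 0.00088), and it was tested only because the libraries labelled knockout reached 1 FPKM. Sesn1, the fifth, was lost after the trend removal (log2 difference 0.26, adjusted p = 0.28). All means here are with SD and n = 3 for each group.

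Targets that act in cell death showed 2 higher and 1 lower of 6 tested genes, or 1 and 1 after the trend removal. The shares of all tested genes were 33.7% higher and 20.4% lower, or 34.6% and 17.3% after the trend removal. Ei24, a protein of the endoplasmic reticulum, averaged 12.4 ± 5.45 FPKM in the libraries labelled knockout and 1.32 ± 0.440 FPKM in those labelled wild type (SD, n = 3 each; limma adjusted p = 0.00042). The death receptor Fas averaged 5.14 ± 1.27 FPKM under the knockout label and 3.13 ± 0.613 FPKM under the wild type label (SD, n = 3 each; adjusted p = 0.045), and the death-promoting Bcl2l11 1.32 ± 0.411 FPKM under the knockout label and 2.21 ± 0.262 FPKM under the wild type label (adjusted p = 0.044). The call of Fas was lost without knockout replicate 2 or 3 or without wild type replicate 2 or 3, with log2 differences of 0.40, 0.62, 0.52 and 0.49 and adjusted p of 0.15, 0.069, 0.12 and 0.14. It was also lost after median centring (0.28, adjusted p = 0.21), quantile normalization (0.29, 0.21), scaling outside mitochondrial transcripts (0.35, 0.24) and the trend removal (0.38, 0.092). The call of Bcl2l11 was lost without knockout replicate 2 or 3 or any of the 3 wild type replicates, with log2 differences from -0.55 to -0.39 and adjusted p from 0.066 to 0.14. Of 3 tested DNA repair targets 2 were higher, also after the trend removal. The polymerase Polk averaged 2.46 ± 0.0377 FPKM under the knockout label and 0.849 ± 0.269 FPKM under the wild type label (adjusted p = 0.0018) and the DNA-binding subunit Rpa1 1.47 ± 0.295 FPKM under the knockout label and 0.165 ± 0.0258 FPKM under the wild type label (adjusted p = 0.00043). Rpa1 was tested only through the libraries labelled knockout.

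Of 137 cell cycle genes besides the members, 118 had a usable row and 41 could be tested. Among these 15 were higher (36.6%) and 5 lower (12.2%), beside 33.7% and 20.4% of all genes, with a median log2 difference of 0.15. The balance turned with scaling, to 8 higher and 12 lower after median centring, while after the trend removal 12 were higher and 3 lower. The balance of all 5673 tested genes turned as well, to 1443 higher and 1891 lower after median centring. Without knockout replicate 2 the counts of the cell cycle genes were 9 and 2, and without wild type replicate 3 also 9 and 2. Of 10 other cyclins tested 1 was higher and 0 lower, or 3 and 1 after the trend removal. The higher one was the transcriptional cyclin Ccnk at 1.87 ± 0.568 FPKM in the libraries labelled knockout and 0.308 ± 0.122 FPKM in those labelled wild type (SD, n = 3 each; limma adjusted p = 0.0012), which was tested only through the libraries labelled knockout. Among cyclin-dependent kinases and their regulators 3 were higher and 3 lower of 12, or 2 and 2 after the trend removal. Wee1, the kinase that restrains entry into mitosis, averaged 2.60 ± 0.697 FPKM in the libraries labelled knockout and 11.2 ± 2.63 FPKM in those labelled wild type (adjusted p = 0.00050). Cks2, a kinase-binding subunit, averaged 27.9 ± 4.43 FPKM under the knockout label and 9.60 ± 1.89 FPKM under the wild type label (adjusted p = 0.00073). Cdk11b averaged 3.08 ± 0.428 FPKM under the knockout label and 1.14 ± 0.411 FPKM under the wild type label (adjusted p = 0.0033) and Cdk8, a kinase of the Mediator complex, 7.20 ± 1.00 FPKM under the knockout label and 11.9 ± 2.03 FPKM under the wild type label (adjusted p = 0.018), and both calls were lost after the trend removal (adjusted p = 0.097 and 0.10). The call of Cdk8 was also lost without knockout replicate 2 (log2 difference -0.55, adjusted p = 0.065) and without wild type replicate 3 (-0.53, adjusted p = 0.068). The remaining called genes were Cdk7, at a limma adjusted p of 0.045, and the inhibitor Cdkn1b, lower at an adjusted p of 0.042 and not called after the trend removal (0.14).

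The retinoblastoma and E2F proteins pass the signal of the D-type cyclins to S phase genes. They showed 4 higher and 1 lower of 9 tested genes, or 1 and 0 after the trend removal. The shares of all tested genes were 33.7% higher and 20.4% lower, or 34.6% and 17.3% after the trend removal. Lin52, a subunit of the complex that silences cell cycle genes at rest, averaged 3.62 ± 0.482 FPKM in the libraries labelled knockout and 1.23 ± 0.226 FPKM in those labelled wild type (SD, n = 3 each; limma adjusted p = 0.0011). Rb1 averaged 7.27 ± 1.60 FPKM under the knockout label and 12.3 ± 0.507 FPKM under the wild type label (adjusted p = 0.014), E2f5 8.61 ± 1.06 FPKM under the knockout label and 4.99 ± 0.460 FPKM under the wild type label (adjusted p = 0.0093) and E2f3 1.37 ± 0.201 FPKM under the knockout label and 0.617 ± 0.378 FPKM under the wild type label (adjusted p = 0.028). These 3 calls were lost after the trend removal, with adjusted p of 0.15, 0.60 and 0.11, and that of E2f3 also without knockout replicate 2 or 3 or wild type replicate 2 or 3 (log2 differences 0.50, 0.61, 0.47 and 0.49, adjusted p from 0.056 to 0.10). E2f5 was also not called after median centring (adjusted p = 0.089). The other higher gene was Tfdp1, at a limma adjusted p of 0.034 and of 0.18 after the trend removal.

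DNA replication genes, the group in which Pcna acts, showed 7 higher and 1 lower of 10 tested genes out of 45 listed, beside 33.7% and 20.4% of all genes, with a median log2 difference of 0.52. After the trend removal 6 were higher and 0 lower, with Orc6 and Rfc1 no longer called (limma adjusted p = 0.12 and 0.056) and Orc3 called (0.0060). The lower gene was the polymerase subunit Pola1 (0.823 ± 0.138 FPKM in the libraries labelled knockout and 1.66 ± 0.295 FPKM in those labelled wild type, SD, n = 3 each; limma adjusted p = 0.014, and 0.39 after the trend removal), which was tested only through the libraries labelled wild type. Rfc4, a subunit of the loader that places Pcna on DNA, averaged 1.82 ± 0.0903 FPKM in the libraries labelled knockout and 0.235 ± 0.0999 FPKM in those labelled wild type (SD, n = 3 each; limma adjusted p = 0.00027), and like Rpa1 it was tested only through the libraries labelled knockout. Orc5, of the origin recognition complex, averaged 4.86 ± 1.19 FPKM under the knockout label and 1.73 ± 1.08 FPKM under the wild type label (adjusted p = 0.0097). None of the 23 mitosis and proliferation genes with a usable row reached 1 FPKM in 3 libraries. They summed to 3.45, 7.61 and 6.69 FPKM in the libraries labelled knockout and to 2.79, 3.70 and 2.74 FPKM in those labelled wild type. The proliferation marker Mki67, named after its values were seen, was listed at 0.109, 0.694 and 0.774 FPKM in the libraries labelled knockout and at 0.110, 0.0900 and 0.0534 FPKM in those labelled wild type.

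**Figure D4:**
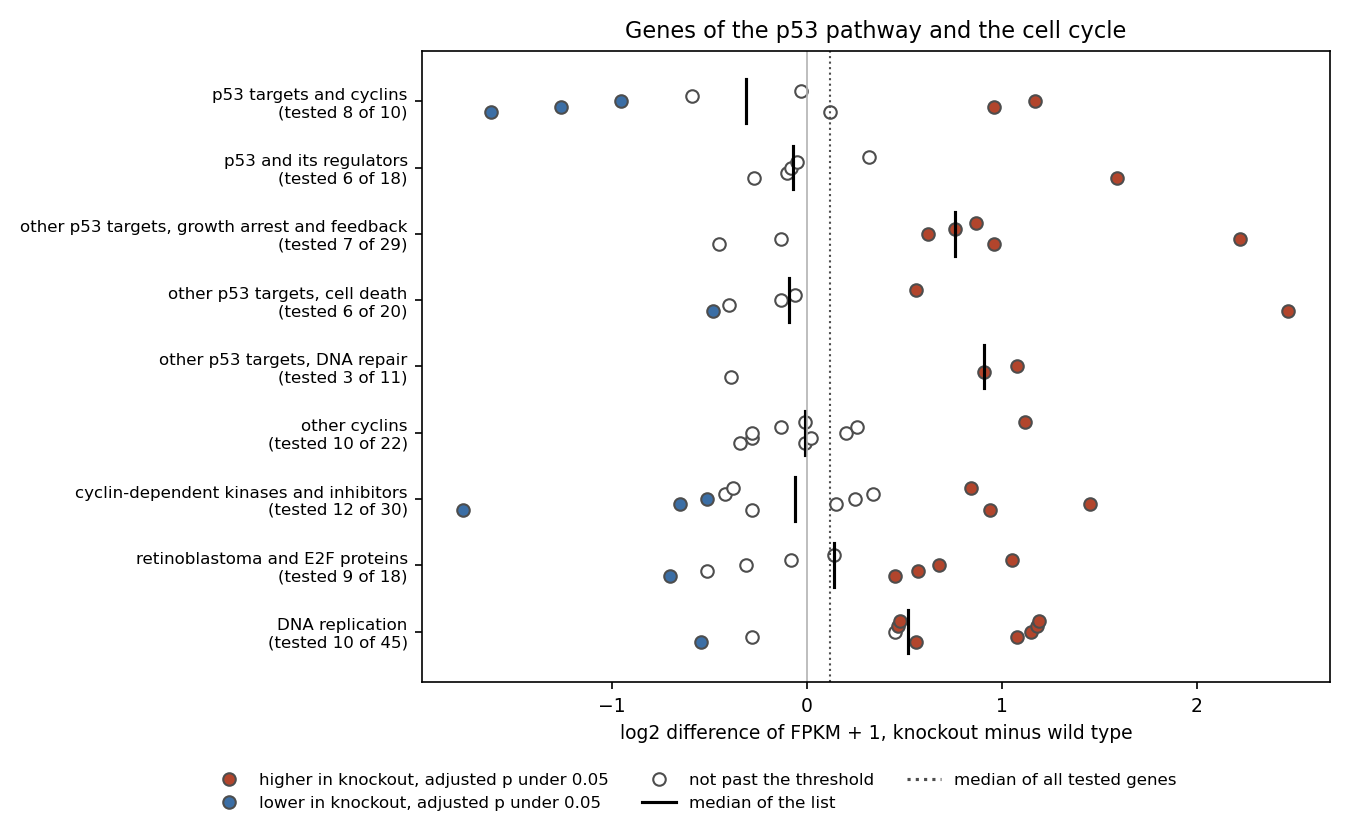
Log2 differences of FPKM + 1, knockout minus wild type (x axis), for each tested gene of 9 lists (y axis, with the number tested of those listed), coloured where the adjusted p was under 0.05, with the median of each list (bar) and of all tested genes (dotted line, 0.12). Replication genes lie mostly to the right, with 7 of 10 higher, and other cyclins lie around 0, with 1 of 10 called. Among the 7, Rfc4 and Rpa1 were tested only through the libraries labelled knockout. The differences are drawn without median centring, which lowers each by 0.28.

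Stellate and endothelial markers were lower beside the members that were lower, and other marker lists differed. For comparison, 33.7% of all tested genes were higher and 20.4% lower. The 8 stellate cell markers with a usable row summed to 26.1 to 39.8 FPKM in the libraries labelled knockout and 88.6 to 167 FPKM in those labelled wild type, and 4 of 4 tested were lower, Reln, Dcn, Lum and Lrat, the last not without knockout replicate 3 or wild type replicate 1 or 3 (limma adjusted p from 0.056 to 0.071) or after the trend removal (-0.55, 0.098). The 10 endothelial markers summed to 11.7 to 13.2 FPKM in the libraries labelled knockout and 18.7 to 23.2 FPKM in those labelled wild type, with 5 of 6 tested lower, Lyve1, Cdh5, Kdr, Oit3 and Ptprb, of which Kdr and Oit3 lost the call without knockout replicate 2 or 3 or wild type replicate 2 or 3 (limma adjusted p from 0.056 to 0.096). Cdh5 was tested only through the libraries labelled wild type, and Ptprb was not called after the trend removal (limma adjusted p = 0.053). Of 4 tested macrophage markers 2 were lower, Timd4 and Adgre1, while Cd5l and Vsig4 had log2 differences of 0.81 and 0.48 and were not called (limma adjusted p = 0.22 and 0.52). The 8 macrophage markers with a usable row summed to 26.7, 56.2 and 13.6 FPKM in the libraries labelled knockout and 40.0, 24.7 and 22.3 FPKM in those labelled wild type, so the groups overlapped. Of 8 tested hepatocyte markers 6 were higher and 0 lower, such as Alb, Ttr, Cyp2e1 and Serpina1a, the last tested only through the libraries labelled knockout. Of the 2 tested cholangiocyte markers Sox9 was higher (limma adjusted p = 0.019), a call lost without knockout replicate 3 or wild type replicate 3 (adjusted p = 0.063 and 0.073) and also after median centring (0.40, 0.11), quantile normalization (0.28, 0.23) and the trend removal (0.39, 0.12). The B cell marker Ms4a1 was the only tested lymphocyte marker, at 0.606, 0.372 and 5.98 FPKM in the libraries labelled knockout and 2.14, 1.72 and 1.98 FPKM in those labelled wild type. In whole liver, fewer cells of a type and less RNA per cell cannot be told apart, and the part of cell makeup in the differences of Perp, Ccnd1 and Ccne2 was not tested.

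The tested genes closest to Mdm2 in profile were Rtf1, Vapb and Edrf1, by the root mean square difference of log2(FPKM + 1), centred on each gene's mean, over the 6 libraries. Their distances were 0.0366, 0.0539 and 0.0657, beside a median of 0.56 over all tested genes. Closest to Cdkn1a were Prepl, Gimap4 and Hnf4a, at 0.0750, 0.0751 and 0.0876, beside a median of 0.513. Each of these 6 genes had its lowest value among the libraries labelled wild type, as Mdm2 and Cdkn1a did. This follows from choosing them by likeness of profile and is not a separate result.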

How the data were processed

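Per the file headers, the authors deposited 1 FPKM value per gene and library, and per the submitters' processing notes HISAT2 and GRCm39 were used. The sources used here name no aligner version, counter or annotation. Identifier and symbol named the same gene in 0 of 24927 rows, so symbols were tested against the values. With GENCODE M21 exon lengths (GRCm38) by symbol, FPKM times length was a whole multiple of 1 read (within 0.15, up to 40 reads) in 98.9% of 43481 low values, but in 35.7% in the chromosome 1 block of 1787 rows, which was left out with 127 rows without a symbol. All 60 member values were whole reads within 0.05. These steps gave read numbers and depth, and the other analyses used FPKM.

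Log2(FPKM + 1) was fitted with limma 3.58.1 (R 4.3.3; mean-variance trend, robust moderation) by labelled genotype, with Benjamini-Hochberg adjustment over 5673 genes at 1 FPKM or more in 3 libraries. Fold changes are on this scale, which understates low genes. On data simulated from these 5673 genes for knockout against wild type, the fit recovered 71 of 100 genes changed by 1 and 92 of 100 changed by 2 on the log2 scale and called 12 unchanged genes. The simulation used independent noise with no GC trend and no shift of scaling, so these numbers do not cover errors from those. It changed 100 genes at each size, while 1911 were called higher and 1157 lower in the data. The numbers need not hold at that larger share. Labels do not say that each library is a separate mouse, so p-values cover only the spread of these libraries, which may be technical. GC content is that of the longest transcript. The trend removal used a loess fit per library on GC content and exon length (5539 genes). Alternatives were no filter, 10 FPKM or the mean as filter, a pseudocount of 0.1, median centring, quantile normalization, scaling outside mitochondrial transcripts, the chromosome 1 block included, plain moderation, the trend removal, a replicate block, a threshold of 0.01 and leaving out each library. Leave-one-out fits kept the same 5673 genes. The lists named genes as the up to 4 called with the smallest adjusted p, or else the up to 2 with the highest mean. One gene so chosen is not reported here. Gapdh, Ccnd3, Trp53, Ints8, Pcna-ps2, Sesn1, Cdk7, Cdkn1b, Tfdp1, Pola1, Orc3, Orc6, Rfc1, Cd5l, Vsig4, Ptprb, Bax and Mki67 were named outside that rule, after their values were seen. The members and lists were chosen with earlier results of these data known. Tables and permutation tests used Python 3.11.15 with pandas 2.3.3, numpy 2.4.6 and scipy 1.17.1, and plots matplotlib 3.10.9.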

Additional observations from a re-analysis of the deposited data

How the results depend on the processing

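Mdm2, Pcna and Perp kept direction and call in each alternative in which they could be tested (17, 17 and 18 settings). Ccnd1 missed only the stricter threshold of 0.01, with an adjusted p of 0.011, and Ccne2 lost its call only after removal of the GC and length trend (-0.19). Ccng1 was called only without knockout replicate 3 (-1.19). Of the uncalled members Ccng1 kept its sign (-1.19 to -0.21), while Trp53inp1 and Gadd45a changed theirs. Trp53inp1 was at 0.50 after the trend removal and between -0.80 and 0.57 when 1 library was left out. Gadd45a was at -0.16 after median centring, -0.08 after quantile normalization and -0.12 when scaled outside mitochondrial transcripts. It was at -0.70 after the trend removal and between -0.43 and 0.50 when 1 library was left out. With 10 FPKM as the filter 3 members remained to be tested, 0 higher and 1 lower, and of all 1746 genes 468 were higher and 559 lower; of the p53 lists 2 were higher and 0 lower, and of the cell cycle lists 1 and 3. Without a filter 3171 of all 20529 genes (15.4%) were higher and 1045 (5.09%) lower. In the p53 lists 17 of 62 genes were then higher and 0 lower. Among all genes tested 1443 were higher and 1891 lower after median centring, and 1427 and 1761 after quantile normalization. They numbered 1437 and 1601 when scaled outside mitochondrial transcripts, and 1395 and 656 at the threshold of 0.01. In the p53 lists the lower genes, 1 as reported, were 4 after median centring, 8 after quantile normalization, 2 when scaled outside mitochondrial transcripts, 3 after the trend removal, 0 at the threshold of 0.01 and 0 to 1 when 1 library was left out. In the cell cycle lists higher and lower genes were 8 and 12 after median centring and after quantile normalization, 8 and 11 when scaled outside mitochondrial transcripts, 9 and 1 at the threshold of 0.01, and 9 to 14 and 2 to 6 when 1 library was left out, while the trend removal left 3 lower. The causes of these shifts were not tested.

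Deviations from the group means had correlations of -0.0488, -0.0964 and 0.181 between libraries with the same replicate number. Between libraries with unlike numbers they ran from -0.347 to 0.345. These values gave no sign of a pairing by number, but with 3 libraries in each group they cannot exclude one. With a replicate block 1740 genes were higher and 1031 lower, the members stayed at 2 higher and 3 lower, and 0 of the p53 lists were lower. Reads limit Cdkn1a most, with 0 to 126 reads in a library.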

Other observations

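The ratio of Pcna to Ccnd1 within a library does not depend on scaling between libraries. As FPKM ratios it was 3.85, 3.18 and 5.92 in the libraries labelled knockout and 0.437, 0.943 and 0.161 in those labelled wild type, so the 2 groups lay on either side of 1. The pair was chosen after the values were seen, and no test was made of it.

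The death effector Bax, a p53 target used by most cells, was listed at 0.0517, 0 and 0 FPKM in the libraries labelled knockout and at 0 in each library labelled wild type, which gives another instance of a widely used gene near 0 in these tables.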
